A study of Homo sapiens with 6 samples.

Results

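The G1 cyclins, cyclin-dependent kinases (CDKs), CDK inhibitors and RB proteins were examined as a list of 10 genes: CCND1, CCND3, CDK2, CDK4, CDK6, CDKN1A, CDKN1B, CDKN2C, RB1 and RBL1. A gene was measured through every probe set that the array annotation assigns to it alone. This gave 13 probe sets for 9 of the 10 genes, among 22283 probe sets and 11963 genes in all, and CDKN2C was not analysed here. The samples were MDA-MB-231, an established line of human breast cancer cells, electroporated with small interfering RNA (siRNA) and harvested 3 days later. In the siPTHrP group the siRNA was aimed at parathyroid hormone-related protein, a secreted peptide known for its part in bone metastasis. In the control group, siLuc, it was aimed at luciferase. Each of 3 independent transfections gave 1 siPTHrP and 1 siLuc RNA, so that each group had 3 arrays, and the question was which transcripts differ between the 2 RNAs of one transfection. The labels give 1 siLuc array no experiment number, and it was placed in experiment 1 by elimination.

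D-type cyclins, encoded by CCND1 and CCND3, bind and activate CDK4 and CDK6 in early G1. These kinases phosphorylate RB1 and its relative RBL1 (p107), pocket proteins that hold E2F transcription factors in check. CDK2 then takes over with E-type and A-type cyclins as the cell enters S phase. CDKN1A (p21) and CDKN1B (p27) bind cyclin-CDK complexes and inhibit CDK2, while CDKN2C (p18) belongs to the INK4 family, which inhibits CDK4 and CDK6. RBL1 is itself transcribed under E2F control.

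Signals were MAS5 intensities, a linear measure of hybridised RNA per probe set, and the median signal of the 6 arrays lay between 559 and 887. The siLuc array of experiment 1 stood apart, with Spearman rank correlations of 0.718 to 0.727 with the other 5 arrays, which correlated with each other at 0.883 to 0.960. It held the highest of the 6 signals in 30.8% of the 13 member probe sets and the lowest in 38.5%. Of all probe sets above the intensity filter the shares were 30.2% and 33.8%, but only 10 of the 13 are above it. The members lowest on this array are all above the filter: CCND1 on 208711_s_at, CCND3, CDK4 and CDK2 on 204252_at and 211804_s_at. Of those highest on it, CCND1 on 208712_at and RB1 on 203132_at are above the filter, and CDK2 on 211803_at and CDK6 are below. Among the 8886 probe sets below the intensity filter this array's signal was the highest in 49.9%. Its values carry decimals in 90.1% of probe sets, against 0% on the other 5. Its hybridisation controls, the RNAs spiked in before hybridisation, had a geometric mean signal of 273100 against 10840 to 41430 on the others, and its ribosomal RNA probe sets one of 84970 against 1295 to 15330. On the siPTHrP arrays of experiments 1 and 2 the ribosomal RNA signal was 1295 and 3601, below the 14730 to 15330 of the other 3. The part of these differences in the results was not tested. Results are also given without experiment 1 or without this array. The probe sets for the siRNA's own target were not analysed here, so the knockdown is not shown. All 5 markers of mesenchymal-like cells (VIM, CD44, CAV1, AXL and MSN) were above the intensity filter, with a summed signal of 194800 to 215200 in siLuc and 158800 to 221200 in siPTHrP. Of 5 luminal or epithelial markers 2 were above it (ESR1 and KRT19). The sum over all 5, with those below the filter, was 1416 to 3823 in siLuc and 1651 to 2609 in siPTHrP. The brightest ESR1 probe set read 1719.8 on the siLuc array of experiment 1 and 154 to 622 on the other 5. A dimmer one above the filter read 1352.7 on that array and 198 to 580 on the other 5. Further ESR1 probe sets were below the filter, so a level of ESR1 is not settled by these signals. Of 3 blood and endothelial markers only PECAM1 was above the filter. The sum over all 3 was 1263 to 2823 in siLuc and 675 to 1026 in siPTHrP. PGR, CDH1, EPCAM, PTPRC and CD14 were below the filter. No marker read 0, and the part of these markers in the results was not tested.

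RefSeq promoter windows (GRCh38.p14, from 250 bases before to 50 after a start site) were available for 8 of the 10 genes and are shown in part for RBL1, whose window holds the E2F letters, and for CCND3 and CDK4, whose signal was higher with siPTHrP in each experiment. Each line reads 5′ to 3′ on the minus strand, with 120 bases before and 20 after the start, and capitals mark the letters searched on both strands. They are TTTCGCGC and TTTGGCGC (E2F) in RBL1 at chr20:37095978-37096117, GGGCGG (GC box) in CCND3 at chr6:41941789-41941928, 1 of its 3 windows, of which 2 hold that motif, and GGGCGG and CACGTG (E-box) in CDK4 at chr12:57752291-57752430.
RBL1: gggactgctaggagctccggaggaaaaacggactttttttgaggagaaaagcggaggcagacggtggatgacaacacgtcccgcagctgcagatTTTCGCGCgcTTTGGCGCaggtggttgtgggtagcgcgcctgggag
CCND3: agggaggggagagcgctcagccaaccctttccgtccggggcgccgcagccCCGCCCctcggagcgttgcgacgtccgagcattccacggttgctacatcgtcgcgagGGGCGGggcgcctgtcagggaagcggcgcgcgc
CDK4: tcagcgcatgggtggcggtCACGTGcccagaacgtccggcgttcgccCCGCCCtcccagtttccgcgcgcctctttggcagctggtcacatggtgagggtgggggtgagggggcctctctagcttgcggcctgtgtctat

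The first bases of the 2 E2F forms stand at -26 and -16 from the RBL1 start, without overlap, and RBL1 was the one gene among the 8 with either form. Of 35116 such windows in the RefSeq table, 0.515% hold TTTCGCGC and 0.652% hold TTTGGCGC. GGGCGG stood in 45% of all windows and in 8 of the 13 windows of the members, so it does not set CCND3 or CDK4 apart. CACGTG stood in 7.26% of all windows and in 4 of the members' 13, of the genes CDK4, CDK6 and CDKN2C. The full cAMP response element TGACGTCA, which is its own reverse complement, is in 1.85% of all windows and in 0 of the 13. These are matches of letters and not measured binding sites.

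Of the D-type cyclins, CCND3 had the largest difference in favour of siPTHrP among the members above the filter, and CCND1 showed nearly the same signal in both groups. The CCND3 probe set 201700_at read 2014.5, 3300 and 2361 on the siLuc arrays (experiments 1, 2, 3) and 3971, 3946 and 3415 on the siPTHrP arrays. All 3 siPTHrP signals lay above all 3 siLuc signals, and the lowest siLuc value came from experiment 1. The mean was 2558 ± 665 with siLuc and 3777 ± 314 with siPTHrP (SD, n = 3), or 1.50-fold with a 95% interval of 1.05 to 2.15. As a log2 fold change on the scale of log2(intensity + 16) this was 0.59 (SE 0.23), from differences of 0.97, 0.26 and 0.53. The unadjusted limma p was 0.0303 and the Benjamini-Hochberg adjusted p over all 13329 probe sets tested was 0.395, so CCND3 did not pass the threshold of 0.05. In RNA of a whole culture, more cells of a cycle phase and more transcript per cell cannot be told apart. Without experiment 1 the log2 fold change of CCND3 was 0.39 (limma adjusted p = 0.438), and without the siLuc array of experiment 1 alone, unpaired, it was 0.43.

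CCND1, the D-type cyclin most often amplified in breast cancer, was read by 2 probe sets. On 208711_s_at the siLuc arrays gave 2297.1, 2543 and 2623 and the siPTHrP arrays 2695, 2558 and 2387. These 6 signals have the narrowest relative range among the member probe sets, and the groups overlap. The log2 fold change was 0.034 (SE 0.23; 95% interval -0.48 to 0.55; limma adjusted p = 0.960). On 208712_at CCND1 read 6208.1, 4445 and 3232 with siLuc and 4642, 5040 and 3853 with siPTHrP, with both extremes in siLuc. Here the log2 fold change was 0.0050 (SE 0.21; 95% interval -0.47 to 0.48; limma adjusted p = 0.993). As folds the CCND1 intervals were 0.715 to 1.47 on 208711_s_at and 0.723 to 1.39 on 208712_at. In experiments 1 and 3 the probe sets moved in opposite directions. The differences were 0.23 on 208711_s_at and -0.42 on 208712_at in experiment 1, and -0.14 and 0.25 in experiment 3.

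**Figure D1:**
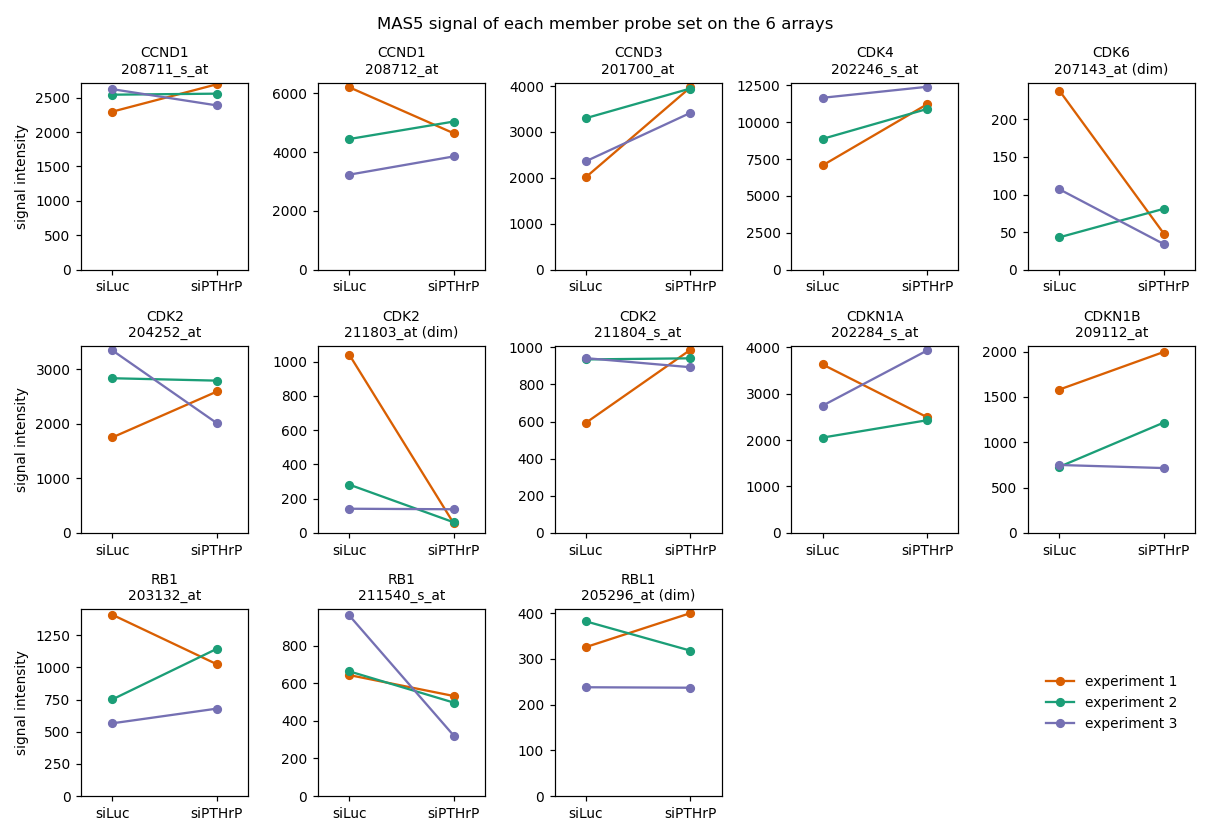
MAS5 signal intensity (vertical axes, linear, from 0) of the 13 member probe sets in siLuc and siPTHrP cells, 1 panel per probe set, with lines joining the 2 arrays of an experiment; dim marks probe sets below the intensity filter. For CCND3 all siPTHrP points (3415 to 3971) lie above all siLuc points (2014.5 to 3300), whereas the groups of CCND1 overlap on both probe sets.

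CDK4, a kinase partner of the D-type cyclins, was higher with siPTHrP in each experiment. Its mean log2 difference was smaller than that of CCND3, but in experiment 2 CDK4 differed by 0.30 and CCND3 by 0.26. The CDK4 probe set 202246_s_at read 7078, 8876 and 11666 with siLuc and 11226, 10907 and 12412 with siPTHrP. The groups overlap, since the siLuc array of experiment 3 exceeds 2 of the siPTHrP arrays. Means were 9207 ± 2310 and 11520 ± 793 (SD, n = 3), or 1.27-fold with a 95% interval of 0.968 to 1.68. The log2 fold change was 0.35 (SE 0.18), made of 0.66, 0.30 and 0.089 in the 3 experiments, and the limma adjusted p was 0.450. Without experiment 1 the value of CDK4 was 0.19, and with quantile normalization it was also 0.19. CDK4 and CCND3 shared the experiment with the widest difference, experiment 1, in which the siLuc signal of each was the lowest of the 6 arrays.

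CDK6, the other D-cyclin kinase, was below the intensity filter on its probe set 207143_at. The filter kept probe sets whose mean log2(intensity + 16) was at least 8.614, a signal of about 376, and CDK6 read 238.4, 43 and 107 with siLuc and 48, 81 and 34 with siPTHrP. Its differences were -1.99, 0.72 and -1.30 across the experiments. In the fit without a filter the log2 fold change was -0.86 with a 95% interval of -2.53 to 0.81. A level of CDK6 cannot be read from so dim a probe set.

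CDK2, the kinase of the G1/S transition, had 3 probe sets that did not move together. The brightest, 204252_at, gave 1751.7, 2835 and 3344 with siLuc and 2592, 2791 and 2010 with siPTHrP. The siLuc arrays span the siPTHrP range on both sides. Its log2 fold change was -0.064 (SE 0.28; 95% interval -0.71 to 0.58; limma adjusted p = 0.939), from 0.56, -0.022 and -0.73. Without experiment 1 this value was -0.38, and without experiment 3 it was 0.27, so that its sign rests on which experiment is included. The second CDK2 probe set, 211804_s_at, read 593.5, 935 and 942 with siLuc and 987, 941 and 893 with siPTHrP. Apart from the siLuc array of experiment 1 these 5 signals lie within 893 to 987, and the log2 fold change of 0.22 (SE 0.41) became -0.033 without experiment 1. The third, 211803_at, was below the filter at 1041.2, 282 and 141 with siLuc and 56, 62 and 138 with siPTHrP. All siPTHrP signals were the lower ones there, with a log2 fold change of -1.95 (95% interval -3.93 to 0.040) in the fit without a filter and -0.98 without experiment 1. Among the 8886 probe sets below the filter, 17% had all 3 siPTHrP signals under all 3 siLuc signals.

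The CDK inhibitors CDKN1A and CDKN1B did not pass, and neither had the same sign in all 3 experiments. CDKN1A, a p53 target, read 3629.4, 2054 and 2742 with siLuc and 2493, 2428 and 3931 with siPTHrP on 202284_s_at. Each group thus held 1 high array, from experiment 1 in siLuc and experiment 3 in siPTHrP, and the rest at 2742 or less. The log2 fold change was 0.073 (SE 0.26; 95% interval -0.51 to 0.66; limma adjusted p = 0.921), from -0.54, 0.24 and 0.52. Leaving out experiment 1 gave 0.38 for CDKN1A (limma adjusted p = 0.475), and leaving out experiment 3 gave -0.15. CDKN1B, whose protein level is set largely by degradation through the SKP2 ubiquitin ligase, read 1581, 729 and 749 with siLuc and 1996, 1217 and 715 with siPTHrP on 209112_at. Its signal differed more between experiments than between groups: both arrays of experiment 1 were the highest and those of experiment 3 were at 749 and 715. The log2 fold change of CDKN1B was 0.33 (SE 0.36; 95% interval -0.48 to 1.15; limma adjusted p = 0.700), and it was 0.13 without experiment 2, 0.53 without experiment 3 and 0.69 without the siLuc array of experiment 1, unpaired.

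**Figure D2:**
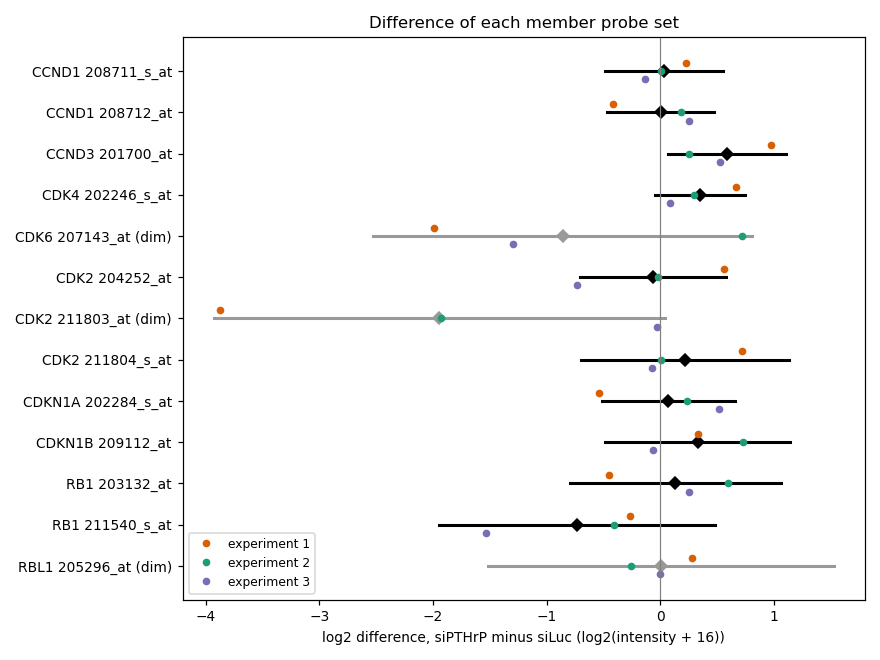
Log2 difference of siPTHrP minus siLuc (horizontal axis, log2(intensity + 16)) for each member probe set; coloured points are the 3 experiments, diamonds the limma estimates and bars their 95% intervals, in grey for probe sets below the intensity filter. CCND3 at 0.59 is the single member whose interval lies wholly above 0, and the RB1 probe sets point in opposite directions at 0.13 and -0.73.

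RB1, the retinoblastoma protein, was read by 2 probe sets with opposite signs. On 211540_s_at RB1 gave 643.2, 663 and 960 with siLuc and 532, 497 and 322 with siPTHrP. Every siPTHrP signal was below every siLuc signal, and the widest gap was in experiment 3. Means were 755.4 ± 177 and 450.3 ± 113 (SD, n = 3), or 0.601-fold with a 95% interval of 0.259 to 1.40. The log2 fold change of -0.73 (SE 0.54), from -0.27, -0.40 and -1.53, had a limma adjusted p of 0.562 and did not pass. Without experiment 3 it was -0.34, and without experiment 1 it was -0.97 (limma adjusted p = 0.431). On the brighter 203132_at RB1 read 1408.4, 752 and 566 with siLuc and 1024, 1145 and 680 with siPTHrP, with overlapping groups. Here the log2 fold change was 0.13 (SE 0.41; limma adjusted p = 0.906), from -0.45, 0.60 and 0.26, and it was 0.43 without experiment 1. The difference between these RB1 probe sets, 203132_at minus 211540_s_at, was -0.19, 1.00 and 1.79 in the 3 experiments, with a mean of 0.87 ± 0.99 (SD, n = 3). The RB1 transcript therefore has no settled direction in these arrays.

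RBL1, the pocket protein whose promoter window holds both E2F forms shown above, was below the filter on 205296_at. It read 325.8, 382 and 238 with siLuc and 400, 318 and 237 with siPTHrP. The means of 315.3 ± 72.6 and 318.3 ± 81.5 (SD, n = 3) differed by less than the spread within either group. The log2 fold change in the fit without a filter was 0.0083 (SE 0.69; 95% interval -1.52 to 1.53), which leaves room for sizeable changes of RBL1 in either direction.

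Over the whole list, 0 of the 10 member probe sets above the filter passed limma's Benjamini-Hochberg threshold, as did 0% of all 13329, and the members' adjusted p-values lay between 0.395 and 0.993. At an unadjusted p under 0.05, 1 member probe set was higher (CCND3), where 6.77% of all probe sets were, and 0 were lower, where 5.36% were. Groups did not overlap for 1 member that was higher (CCND3; 8.94% of all) and 1 that was lower (RB1 on 211540_s_at; 9.69% of all). The sign was the same in all 3 experiments for 2 that were higher (CCND3 and CDK4; 19.1% of all) and 1 that was lower (RB1 on 211540_s_at; 19% of all). These shares are near those of all probe sets. Of the 10 member probe sets 8 were above 0 and 2 below, with a median log2 fold change of 0.10 beside 0.030 over all probe sets tested. With 1 value per gene from its brightest probe set, 6 of 7 genes were above 0, CCND1 by only 0.0050, and 1 was below. The median of these gene values was 0.13, with no like value over all genes beside it. The share of all probe sets or genes above 0 was not counted, here or for the lists below.

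Member probe sets also failed to pass where other settings called some of all probe sets. With array weights estimated by limma 1.33% of all probe sets passed and 0 members did. The weights were the same for both arrays of an experiment: 0.386, 2.23 and 1.16 in experiments 1, 2 and 3. They therefore did not weigh the siLuc array of experiment 1 apart from its partner. Leaving out experiment 1, 2 or 3 let 0.248%, 0.353% and 1.61% of all probe sets pass and again 0 members. The adjusted p of CCND3 was 0.286 with array weights, the lowest it reached under 14 alternatives, and its log2 fold change stayed between 0.39 and 0.75. That of CDK4 lay between 0.18 and 0.48 under the same number of alternatives.

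**Figure D3:**
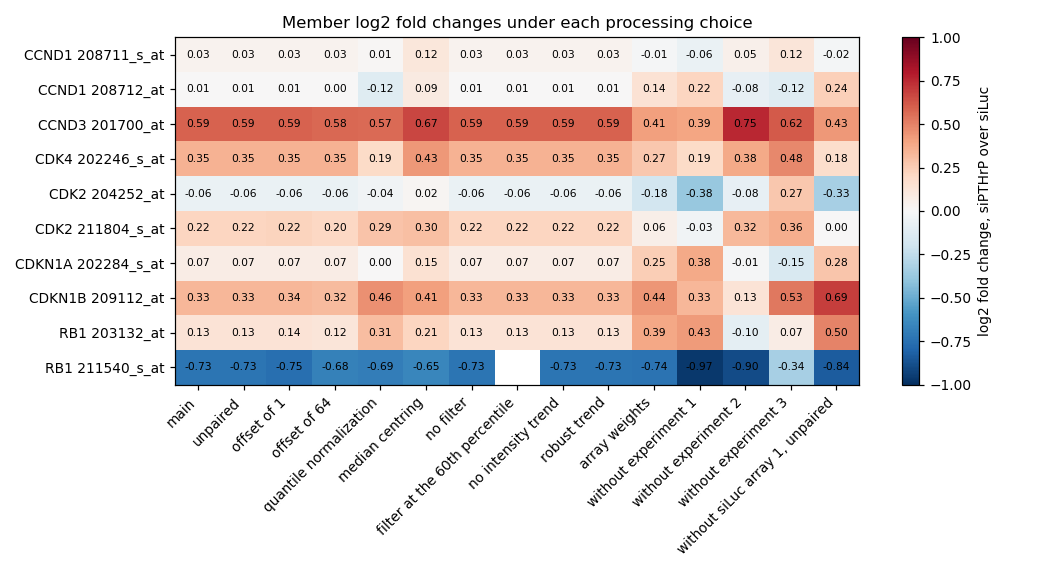
Log2 fold change, siPTHrP over siLuc, of the 10 member probe sets above the intensity filter (vertical axis) under the main setting and 14 alternatives (horizontal axis), with the value printed in each cell and the blank cell a probe set removed by a stricter filter. CCND3, CDK4 and CDKN1B stay above 0 and RB1 on 211540_s_at stays below 0 in all cells shown, whereas the CCND1, CDK2 and CDKN1A values and that of RB1 on 203132_at change sign in at least 1 cell.

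The other genes of the G1/S pathway were read from 4 lists, in which 0 genes passed in either direction on their brightest probe set. At an unadjusted p under 0.05, 1 gene of the first list was higher (CCNH), 1 of the second (RBX1), 0 of the third and 5 of the fourth, and 0 were lower in any of the 4, where 6.77% of all probe sets were higher and 5.36% lower. The counts of the first and second list, 1 of 10 and 1 of 8 genes, are near that background. G1/S cyclins, CDKs and the CDK-activating kinase had 8 of 10 genes above 0, with a median log2 fold change of 0.35 that was 0.60, -0.082 and 0.18 in the 3 experiments. CCNH, the cyclin of the CDK-activating kinase, stood at 1.47-fold (limma adjusted p = 0.383), with 3297, 5839 and 5378 in siLuc and 6631, 6968 and 7092 in siPTHrP, so that its groups did not overlap, as for 8.94% of all probe sets. Without experiment 1 the median of this list was 0.035, and without the siLuc array of experiment 1 alone, unpaired, it was also 0.035. CCNA2, the cyclin A of S phase, was at 1.34-fold, CDK7 at 1.21-fold, and the E-type cyclins CCNE1 and CCNE2 at 0.790-fold and 0.616-fold. On the siLuc array of experiment 1 CCNE1 read 2163.4, against 535 to 1004 on the other 5, and CCNE2 1329.5, against 319 to 712. The differences were -1.10, -0.23 and 0.31 for CCNE1 and -1.03, -1.12 and 0.055 for CCNE2. A dimmer CCNE2 probe set, below the filter, was at 1.43-fold. MNAT1, the assembly factor of the CDK-activating kinase, was at 1.67-fold, from differences of 2.16, -0.057 and 0.11, with 279.8 on the siLuc array of experiment 1 and 1305 to 2093 on the other 5. For these 5 genes limma gave adjusted p-values from 0.453 to 0.754. Among CDK inhibitors and their degradation 5 of 8 genes were above 0, with a median of 0.16 that was 0.090, -0.12 and 0.35 in the 3 experiments. It was 0.34 without experiment 2 and -0.0093 without experiment 3. Both the count and the median include CDKN2A at 0.12, a gene known to be deleted in MDA-MB-231. RBX1, the RING subunit of the SCF ubiquitin ligase, stood at 1.47-fold (limma adjusted p = 0.410) with groups that did not overlap (8.94% of all probe sets), the scaffold CUL1 at 1.29-fold, and the F-box protein FBXW7 at 0.507-fold. The F-box protein SKP2, which targets CDKN1B, was at 1.71-fold on its brightest probe set but at 0.654-fold and 0.740-fold on its other 2. The differences of that brightest SKP2 probe set were 2.16, -0.48 and 0.64, with 278.2 on the siLuc array of experiment 1 as its lowest signal.

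Pocket proteins, E2F factors and DREAM subunits had 3 of 9 genes above 0 and a median of -0.055, which was -0.13, 0.012 and -0.43 in the 3 experiments. Without experiment 3 it was 0.028, without experiment 2 it was -0.19 and without experiment 1 it was -0.095. With median centring it was 0.026. E2F4, the E2F that binds RBL1 and RBL2, stood at 0.753-fold (limma adjusted p = 0.429) with its signal lower in 3 of 3 experiments, but a dimmer probe set of E2F4 gave 1.13-fold. TFDP2, a dimerisation partner of E2F factors, was at 0.742-fold and 0.493-fold on its 2 probe sets, with groups that did not overlap on either (9.69% of all probe sets). E2F6, a repressor, was at 1.88-fold, from differences of 2.94, 0.50 and -0.71, and its signal of 175.8 on the siLuc array of experiment 1 was the lowest of the 6. E2F1, an activator, was at 0.869-fold. Of E2F target genes of S phase, 14 of 18 were above 0 and the median was 0.26, with 0.28, 0.35 and 0.32 in the experiments. Of these 18 genes 5 were higher at an unadjusted p under 0.05 and 0 were lower, where 6.77% and 5.36% of all probe sets were: TYMS, the ribonucleotide reductase subunit RRM2 (1.47-fold), thymidine kinase TK1 (3.10-fold), the clamp loader subunit RFC4 (1.56-fold) and the helicase subunit MCM5 (2.01-fold). TK1 read 267.3, 1278 and 176 in siLuc and 1292, 1343 and 1166 in siPTHrP, so its groups overlapped. Its differences were 2.21, 0.071 and 2.62. On other probe sets RRM2 was at 1.38-fold, and below the filter MCM5 was at 1.45-fold and TYMS at 0.53-fold. TYMS, thymidylate synthase, with the smallest unadjusted p of the 4 lists, read 8599.6, 6712 and 8685 in siLuc and 10989, 12548 and 12586 in siPTHrP. Its log2 fold change of 0.60 (SE 0.18) had a limma adjusted p of 0.332, and with array weights TYMS was the one gene of the 4 lists that passed (0.73, limma adjusted p = 0.0348).

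**Figure D4:**
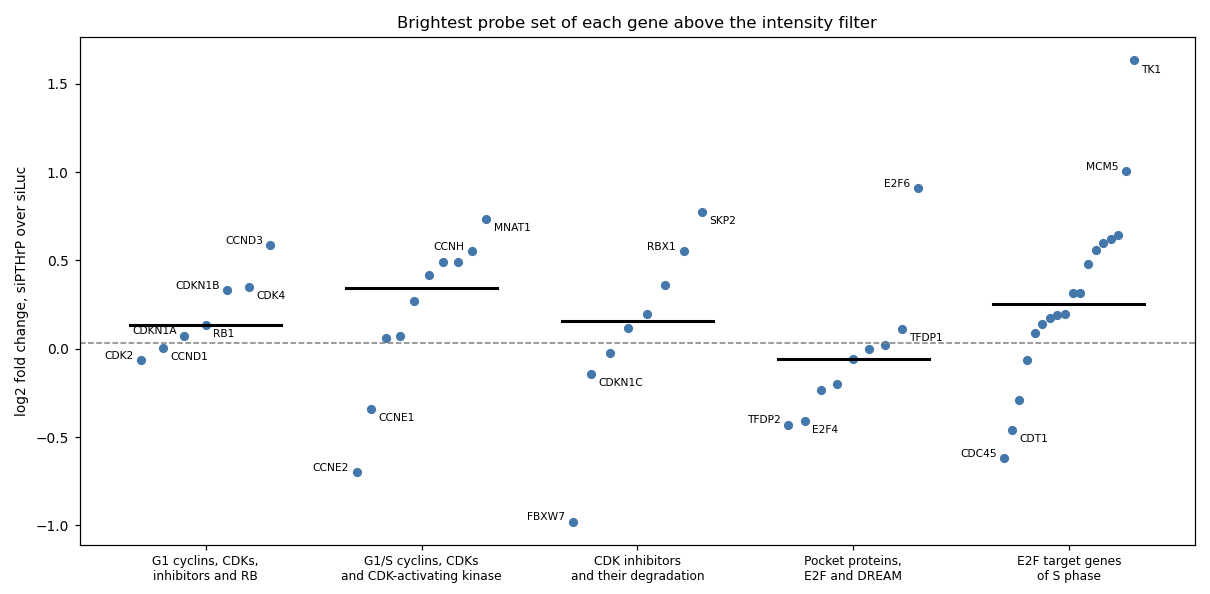
Log2 fold change, siPTHrP over siLuc (vertical axis), of the brightest probe set of each gene above the intensity filter, for the members and the 4 pathway lists; black bars are list medians and the dashed line is the median of all probe sets tested. The member median is 0.13 and the list medians run from -0.055 for pocket proteins and E2F to 0.35 for G1/S cyclins and CDKs. The median over all probe sets, not reduced to 1 per gene, is 0.030. Without experiment 1 that 0.35 was 0.035, and without experiment 3 that -0.055 was 0.028.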

How the data were processed

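The deposited values were linear MAS5 signal intensities from Affymetrix human arrays (U133, chip A), 1 array per RNA, per the submitters' processing notes and the labels; its version and settings are not stated there. Trimmed means (2% at each end) of 1500.4 to 1500.6 on all arrays show a common scaling, which was kept, although the siLuc array of experiment 1 differs in number format and control signals. MAS5 makes low signals noisy, and the offset of 16 shrinks their fold changes.

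After removal of 68 control probe sets, log2(intensity + 16) values were kept where their mean over 6 arrays reached the 40th percentile, which left 13329 probe sets. The fit, with terms for siRNA and for experiment, used limma 3.58.1 in R 4.3.3 (eBayes with trend, 2 residual degrees of freedom, prior 7.17). Two-sided p-values were corrected by the Benjamini-Hochberg method over all kept probe sets. The code was tested on simulated data. Their noise was estimated without the siLuc array of experiment 1, so the test does not cover an array that stands apart.

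The design text pairs RNAs of the same experiment number. One siLuc sample carries no number and was assigned to experiment 1 because 2 and 3 were taken, and for the one whose title says 3 and description 2 the title was followed. Deviations from group means correlated at -0.0124, 0.157 and 0.157 within experiments 1, 2 and 3. The other 6 pairs of a siLuc and a siPTHrP array, from different experiments, gave -0.206 to 0.132. The value of experiment 1 lies within that range, and those of experiments 2 and 3 lie little above it. With no replicate block 0 probe sets passed, as in the paired fit.

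The annotation gave 19071 probe sets 1 gene, 1043 several and 2169 none; 19059 matched RefSeq by Entrez identifier. All probe sets of the members are named, and from each pathway list those that passed and up to 6 others with the smallest p. Members, lists and settings were chosen with earlier results of these data known.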

Additional observations from a re-analysis of the deposited data

How the results depend on the processing

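No member probe set passed under any of the 14 alternatives, and of 175 member fits 161 kept their sign. Over all probe sets 0 passed except with array weights (177) and when 1 experiment was left out (33 to 215); with array weights 1 gene of the pathway lists passed. The fit with no replicate block changed no call (CCND3 0.59 in both fits). Signs turned for probe sets whose log2 fold change in the main fit lay between -0.064 and 0.22. CCND1 on 208712_at was -0.12 with quantile normalization and -0.12 to 0.22 when 1 experiment was left out. CCND1 on 208711_s_at was -0.013 with array weights, -0.022 unpaired without the siLuc array of experiment 1, and -0.063 to 0.12 with 1 experiment left out. CDK2 on 204252_at was 0.018 with median centring, and leaving out 1 experiment gave -0.38 to 0.27 there, -0.033 to 0.36 for CDK2 on 211804_s_at, -0.15 to 0.38 for CDKN1A and -0.098 to 0.43 for RB1 on 203132_at. RBL1 was -0.12 with array weights and -0.13 to 0.14 with 1 experiment left out. As a mean over probe sets CDK2 was 0.077 and RB1 -0.30, against -0.064 and 0.13 on the brightest. The filter at the 60th percentile removed RB1 211540_s_at, and leaving out _x_at and _s_at probe sets left no value for CDK4 and CDKN1A. The cause of these turns was not tested. Precision is limited by the number of arrays, 3 a group.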

Other observations

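Of the other INK4 genes, CDKN2A (p16) is known to be deleted in MDA-MB-231. CDKN2A on 209644_x_at read 218.8, 1186 and 993 with siLuc and 753, 487 and 928 with siPTHrP, which is above the intensity filter on average. On 207039_at CDKN2A read 2139.4, 507 and 275 with siLuc and 335, 270 and 305 with siPTHrP, and the one high value was that of the siLuc array of experiment 1. CDKN2B (p15), its neighbour, was below the filter on 207530_s_at, with 1618.7 on that same array and 18 to 149 on the other 5. CDKN2D (p19) on 210240_s_at read 1462.9, 626 and 499 with siLuc and 816, 917 and 584 with siPTHrP, again with the siLuc array of experiment 1 the highest. The part of this array's high signals in the differences of other dim probe sets, such as 211803_at of CDK2, was not tested.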
